A study of Mus musculus with 16 samples.

Results

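The stefin A cluster of the mouse is a row of closely related genes on chromosome 16 that encode small cytosolic proteins of the cystatin superfamily. The genes described here are Stfa1, Stfa3, BC100530, BC117090 and EG433016, which carry the current RefSeq names Stfa1, Stfa3, Cstdc5, Cstdc6 and Cstdc4. They were picked because their values were higher in endosialin-knockout tumour pericytes than in wild-type tumour pericytes, and every probe of the array annotated with one of these symbols was taken. This gave 6 probes for 5 genes, out of 24040 probes and 16537 gene symbols, with 2 probes for Stfa1 and 1 for each of the others. The choice states no threshold, and the pericyte values are therefore given as a description with no test.

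Stefins are tight, reversible inhibitors of papain-like cysteine proteases such as cathepsins B, H, K, L and S, which they block by filling the active-site cleft. Humans have a single stefin A gene, CSTA, known mainly from the epidermis, where the protein is a component of the cornified envelope, and from neutrophils and other leukocytes. In the mouse the gene has multiplied into the cluster on chromosome 16, and its copies are known from skin and from cells of the myeloid lineage.

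The cells were sorted from primary tumours of 67NR, a carcinoma line of the mouse mammary gland, that grew in the 4th mammary fat pad of female Balb/c UbGFP mice aged 6 to 8 weeks until the tumours had a mean diameter of 10 mm, after 2 to 4 weeks. The hosts of all 4 groups shared this strain, transgene and tumour line and differed in endosialin (Cd248), a membrane glycoprotein of pericytes and fibroblasts, which was wild type or knocked out. The groups were wild-type tumour pericytes, knockout tumour pericytes, wild-type tumour endothelial cells and knockout tumour endothelial cells, each with 4 Illumina MouseWG-6 v2.0 bead arrays of RNA from freshly sorted cells. The labels give neither the markers of the sorting gates nor the type of the knockout allele nor how many animals stand behind an array. As they do not say that arrays of a group came from separate animals, the p-values describe the spread between these arrays, which may be technical.

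Values are the authors' normalized intensities on a log2 scale. Array medians lay between 7.18 and 7.21 and the lower quartiles between 6.92 and 6.96, with a lowest value of 6.58, so a transcript near 6.7 to 6.9 lies below the lower quartile, near the floor of the scale, and folds measured from there are compressed. Cd248 itself lay between 10.75 and 11.19 on the wild-type pericyte arrays and between 6.96 and 7.21 on the knockout pericyte arrays, so all 8 pericyte arrays matched their genotype labels. A list of 9 pericyte markers averaged 8.51 to 9.79 on the wild-type pericyte arrays and 7.82 to 8.14 on the wild-type endothelial arrays. Within that list Mcam went the other way, with wild-type means of 9.95 and 11.23, and Kcnj8 was level, at 8.66 and 8.65. On the knockout arrays the list averaged 8.79 to 9.07 in pericytes and 7.82 to 7.98 in endothelial cells. A list of 9 endothelial markers averaged 9.74 to 9.86 on the wild-type endothelial arrays and 6.98 to 7.30 on the wild-type pericyte arrays.

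The promoters of 4 of the 5 genes were available in RefSeq, as windows of 250 bases before to 50 after the annotated start on the build GRCm38.p6. They are shown because these genes moved together and because the windows are themselves alike in sequence. The stretch from 100 bases before the start to 30 bases after it is printed for these 4 genes, and for EG408196 (Csta3) and Stfa2, the other measured genes of the locus. Capitals mark runs of at least 8 bases that occur in all 4 windows of the set and lie whole in the printed stretch.
Stfa1, chr16:36277048-36277177, plus strand: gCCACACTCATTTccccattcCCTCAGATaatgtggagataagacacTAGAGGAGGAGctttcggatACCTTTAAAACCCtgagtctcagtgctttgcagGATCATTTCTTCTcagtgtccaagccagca
Stfa3, chr16:36455363-36455492, minus strand: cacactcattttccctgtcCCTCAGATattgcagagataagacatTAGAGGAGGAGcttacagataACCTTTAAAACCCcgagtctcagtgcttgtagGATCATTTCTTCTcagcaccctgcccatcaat
BC100530 (Cstdc5), chr16:36367541-36367670, minus strand: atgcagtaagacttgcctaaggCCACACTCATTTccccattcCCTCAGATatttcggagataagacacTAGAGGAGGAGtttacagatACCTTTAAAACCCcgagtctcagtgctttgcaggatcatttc
EG433016 (Cstdc4), chr16:36184112-36184241, plus strand: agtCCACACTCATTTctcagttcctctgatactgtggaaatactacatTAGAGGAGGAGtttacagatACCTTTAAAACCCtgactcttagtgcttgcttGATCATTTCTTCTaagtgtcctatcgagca
EG408196 (Csta3), chr16:36210303-36210432, plus strand: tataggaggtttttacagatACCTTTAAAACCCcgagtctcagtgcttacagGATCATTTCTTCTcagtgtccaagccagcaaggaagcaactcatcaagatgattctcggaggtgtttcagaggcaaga
Stfa2, chr16:36408334-36408463, minus strand: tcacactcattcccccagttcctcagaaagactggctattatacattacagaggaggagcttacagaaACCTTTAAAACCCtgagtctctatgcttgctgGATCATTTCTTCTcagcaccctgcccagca

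Over the full windows, the 6 pairs among these 4 promoters were 67.8% to 83.8% identical in a global alignment, with Stfa1 and BC100530 the closest pair. The same 4 windows were 43.6% to 52.8% identical with the windows of 10 flanking genes of the chromosome. The run ACCTTTAAAACCC began 33 bases before the start of Stfa1, 34 before Stfa3, 12 before BC100530 and 32 before EG433016, and also 80 before EG408196 and 32 before Stfa2. It occurred on either strand in 9 of the 32851 RefSeq windows (0.0274%), of which 0 lay outside the stefin locus. The run GATCATTTCTTCT began at the first base of the transcript of Stfa1, EG433016 and Stfa2, 2 bases before that of Stfa3, at base 22 of BC100530 and 48 bases before EG408196. It occurred in 10 windows (0.0304%), of which 1 lay outside the locus.

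The runs CCACACTCATTT and TAGAGGAGGAG, chosen for being in all 4 windows of the set, had no exact match in the EG408196 or Stfa2 window. Near matches were not counted, and the printed Stfa2 stretch holds cagaggaggag, which differs from TAGAGGAGGAG in its first base only. The absence of exact matches therefore does not set Stfa2 apart. The runs occurred in 7 windows (0.0213%), 1 of them outside the locus, and in 25 windows (0.0761%), 19 of them outside the locus. Searches on both strands for 6 short motifs found GAGGAA, the core bound by the myeloid factor PU.1, in 4 of 4 windows of the set against 28.3% of all windows. AGATAA, the core bound by GATA factors, was in 3 of 4 against 11.2%, CCAAT in 3 of 4 against 37.4%, and TTNNGNAA, read by C/EBP factors, in 3 of 4 against 40.7%. TGANTCA, read by AP-1, was in 1 of 4 against 7.81%, and TATAAA in 0 of 4 against 13.6%. Matches of different motifs overlapped in 0 cases within the set. In the other 2 printed genes, the PU.1 core had 0 matches in the EG408196 window and 1 in the Stfa2 window. The GATA core had 2 and 0, and the C/EBP site 1 and 1. The presence of the PU.1 core thus did not separate the set from Stfa2, whose values stayed below the array medians. The windows are copies of each other, so their matches are not independent.

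Stfa1 encodes a cytosolic stefin A and is the only gene of the set with 2 probes. Its main probe read 7.02, 6.81, 8.30 and 7.28 on the 4 wild-type pericyte arrays and 8.11, 10.43, 10.62 and 10.56 on the 4 knockout pericyte arrays. Knockout replicates 2, 3 and 4 stood well above everything else, whereas knockout replicate 1 was below wild-type replicate 3, so the groups overlapped. The means were 7.36 ± 0.66 and 9.93 ± 1.22 (SD, n = 4), a difference of 2.58 on the log2 scale or 5.96-fold. Without knockout replicate 1 it was 9.09-fold, with group medians in place of means it was 10.16-fold, and it was 5.08-fold without knockout replicate 3, the lowest value with any pericyte array left out.

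The second Stfa1 probe read 6.96, 6.91, 7.77 and 7.15 in wild-type pericytes and 7.52, 9.45, 9.61 and 9.76 in knockout pericytes. It gave the same picture at a smaller size, a difference of 1.89 on the log2 scale or 3.70-fold, with wild-type replicate 3 again above knockout replicate 1. On the endothelial arrays the main probe lay between 6.74 and 6.89 and the second probe between 6.74 and 6.90.

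Stfa3 encodes a stefin with the same fold as stefin A. Its probe read 6.82, 6.72, 7.49 and 6.84 in wild-type pericytes and 7.65, 8.74, 8.95 and 9.04 in knockout pericytes. Every knockout array lay above every wild-type array, by 0.16 on the log2 scale between the closest pair. The means were 6.97 ± 0.35 and 8.59 ± 0.64 (SD, n = 4), a difference of 1.62 or 3.08-fold.

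BC100530 read 6.95, 6.96, 7.60 and 7.15 in wild-type pericytes and 7.69, 9.64, 9.75 and 9.70 in knockout pericytes. The groups did not overlap, but knockout replicate 1 was only 0.09 above wild-type replicate 3. The means were 7.17 ± 0.30 and 9.19 ± 1.00 (SD, n = 4), a difference of 2.03 or 4.08-fold, and 6.12-fold with group medians.

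BC117090 read 6.93, 6.83, 7.62 and 7.11 in wild-type pericytes and 7.59, 9.40, 9.48 and 9.60 in knockout pericytes. Here the groups overlapped, with knockout replicate 1 a little below wild-type replicate 3. The means were 7.12 ± 0.35 and 9.01 ± 0.96 (SD, n = 4), a difference of 1.89 or 3.71-fold.

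EG433016 read 6.87, 6.81, 7.29 and 6.94 in wild-type pericytes and 7.35, 8.53, 8.32 and 8.58 in knockout pericytes. The groups did not overlap, by a margin of 0.05, and the difference of the means, 1.22 or 2.33-fold, was the smallest in the set. BC100530, BC117090 and EG433016 are less studied copies of the stefin A family.

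**Figure D1:**
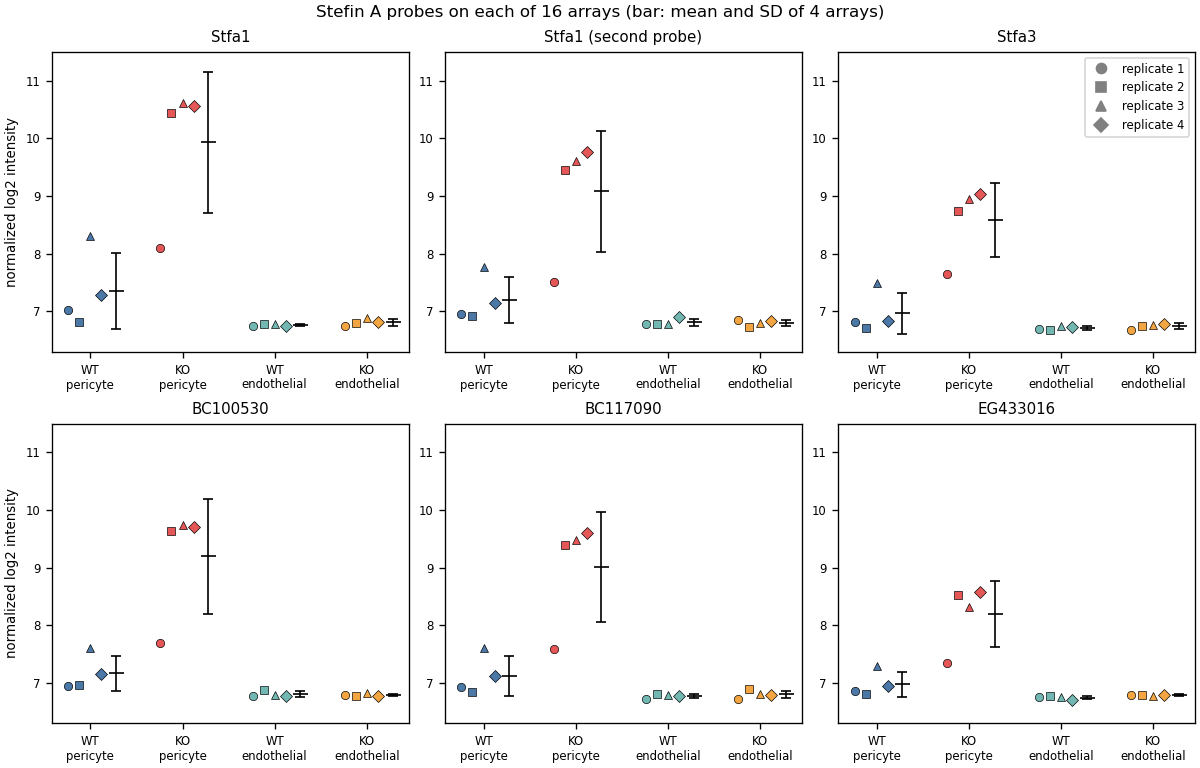
Normalized log2 intensity of each of the 6 stefin A probes on the 16 arrays, by group, with the marker shape giving the replicate number and the bar the mean and SD of 4 arrays. Knockout pericyte replicates 2, 3 and 4 are high on every probe, knockout replicate 1 lies near wild-type replicate 3, and the endothelial arrays all lie between 6.67 and 6.90.

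The arrays ranked in nearly the same way on every probe. Knockout replicate 1 was the lowest of its group on 6 of 6 probes, wild-type replicate 3 was the highest of its group on 6 of 6, and wild-type replicate 4 was next on 6 of 6. The mean of the 5 genes was 6.92, 6.83, 7.66 and 7.07 on the wild-type pericyte arrays and 7.68, 9.35, 9.42 and 9.50 on the knockout arrays. Knockout replicate 1 thus stood at the level of the highest wild-type array, while its Cd248 value of 7.21 matched its knockout label. These closely related genes may share signal between probes. Whether a probe also read its neighbours' transcripts was not tested, because probe sequences were not used here. With RNA from bulk sorted cells, more cells of a type that expresses stefins cannot be told apart from more stefin RNA per cell.

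Every knockout array lay above every wild-type array for 3 of the 5 genes on their main probe. The same held for 144 of the 10426 genes tested (1.38%). Since the genes were picked on this contrast, nothing is read from that count. All 6 probes passed the filter on dim probes, which asked for a value above the array median on at least 4 of the 16 arrays, and they passed through the arrays on which they were high.

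In the endothelial cells all 6 probes lay between 6.67 and 6.90 on all 8 arrays, below the lower quartile of every array. This comparison of genotypes did not enter the choice of the genes and was tested, but the probes passed the filter through pericyte arrays alone, and with all endothelial values near the floor the test had little room to call a difference. The question was whether stefin A transcripts differed between knockout and wild-type tumour endothelium. Stfa1 differed by 0.04 on the log2 scale with a standard error of 0.41, BC117090 by 0.03, EG433016 by 0.04, Stfa3 by 0.03 and BC100530 by -0.01, each with an adjusted p of 1 in limma over 10426 genes, and 0 of 5 passed at an unadjusted p under 0.05. In the same comparison 387 of the 10426 genes passed at an unadjusted p under 0.05, so 0 of 5 says little. After adjustment 1 of the 10426 genes passed (0.00959%), Osbp, an oxysterol-binding protein. It read 7.63 in wild type and 8.34 in knockout and is named here after its value was seen.

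The standard errors in that fit are set mainly by the scatter of the pericyte arrays, since the 16 arrays share an estimate of the spread. When the fit used the 8 endothelial arrays alone, the standard error for Stfa1 was 0.06 and the 95% confidence interval of its difference ran from -0.10 to 0.19. The widest interval ends over the 5 genes were -0.15, for BC100530, and 0.19, for Stfa1, with adjusted p between 0.9986 and 0.9999 in limma. Signal this close to the floor of the array bounds what could be seen, and a difference among very rare transcripts was not detectable.

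Wild-type pericytes were slightly above wild-type endothelial cells. On 5 of 6 probes each of the 4 wild-type pericyte arrays lay above all 4 wild-type endothelial arrays, and on the Stfa3 probe 3 of 4 did. The mean differences ran from 0.23 for EG433016 to 0.59 for Stfa1, or 1.17-fold to 1.502-fold. In knockout cells the same differences ran from 1.41 for EG433016 to 3.12 for Stfa1, or 2.66-fold to 8.69-fold. Both comparisons use pericyte arrays on which the genes were picked, and they share those arrays with the comparison of genotypes, so they carry no test here.

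RefSeq lists 12 protein-coding stefin genes in a row in this locus, and 7 of them had a probe with a matching accession or name. The 2 that were not picked are EG408196 (Csta3) and Stfa2. EG408196 read 6.80, 6.72, 7.13 and 6.71 in wild-type pericytes and 6.76, 8.16, 8.20 and 8.83 in knockout pericytes. Its pattern was that of its neighbours, with knockout replicates 2, 3 and 4 high and replicate 1 among the wild-type values. It did not pass the filter, since it was above the array median on only 3 arrays. With no filter its difference of 1.15 (standard error 0.28, 2.23-fold) had an adjusted p of 0.1303 in limma and missed the threshold of 0.05, where 14 of 16537 genes passed (0.0847%).

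Stfa2 encodes another stefin A copy and sits between BC100530 and Stfa3 among the genes with a probe. It read 6.80, 6.77, 6.76 and 6.87 in wild-type pericytes and 6.88, 7.13, 6.95 and 6.84 in knockout pericytes. All of these values lie below the array medians, and the groups overlapped. With no filter the difference was 0.15 with a standard error of 0.06 and an adjusted p of 0.5424 in limma. Its promoter window, printed above, was 79.3% identical to that of Stfa1 and 81% identical to that of Stfa3.

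Of the genes flanking the locus, 5 on each side had a probe, and 9 of these 10 were tested in pericytes. In limma 0 of the 9 passed, and at an unadjusted p under 0.05 only Cd86 did, against 33 of 10426 genes in that comparison (0.317%), of which 32 were higher in knockout and 1, Cd248, was lower. At an unadjusted p under 0.05, 743 of the 10426 genes passed. Apart from Cd86 the differences of the flanking genes ran from -0.34 for Dtx3l to 0.19 for Fam162a.

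Cd86, which encodes a costimulatory ligand of antigen-presenting cells, lies next to the stefin row among genes with a probe. It read 6.77, 6.75, 7.33 and 6.88 in wild-type pericytes and 6.85, 8.45, 8.55 and 8.06 in knockout pericytes. The arrays that were high and low were those of the stefins. The difference of 1.05 (standard error 0.25) had an adjusted p of 0.1162 in limma and missed the threshold, and a dimmer Cd86 probe differed by 0.33.

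**Figure D2:**
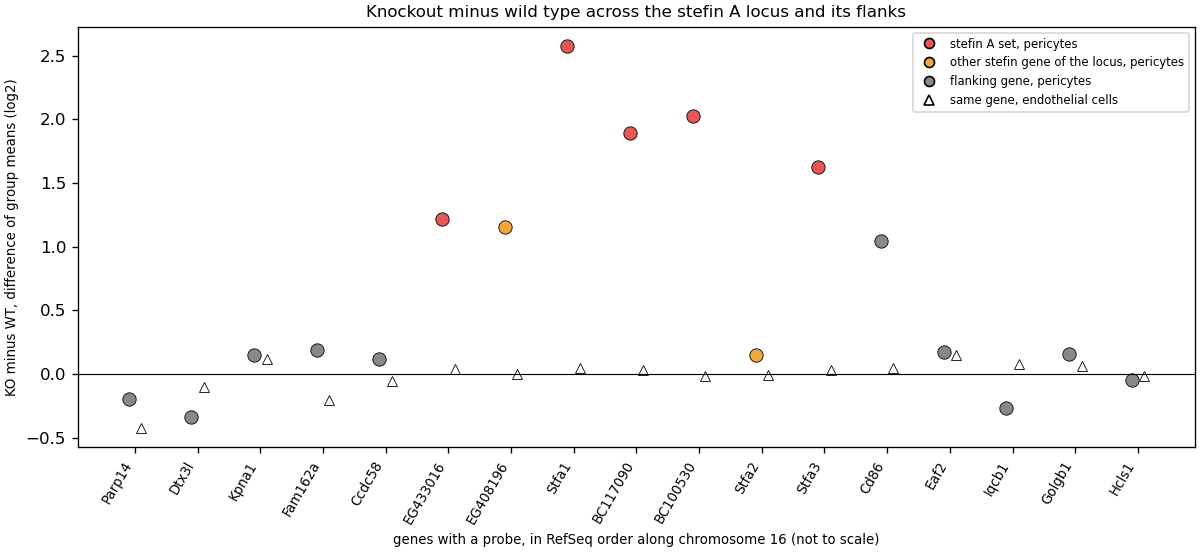
Knockout minus wild type as a difference of group means (log2) for the 17 genes of the locus and its flanks that have a probe, in RefSeq order and not to scale, with circles for pericytes and triangles for endothelial cells. The 5 stefin A genes reach 1.22 to 2.58 in pericytes, EG408196 reaches 1.15 and Cd86 1.05, while Stfa2 reaches 0.15, the other flanking genes lie between -0.34 and 0.19 in pericytes, and the stefin triangles lie near 0. Parp14 has the lowest triangle, at -0.43.

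Keratins and other epithelial genes were among those whose values followed the stefins most closely over the arrays. Over the 16 arrays, the 10 genes with the highest Pearson correlation with the mean of the 5 stefin genes, among 10421 others, included Krtdap, Lgals7, Perp, Krt6b, Krt5, Krt16, Aqp3, 2310040C09Rik (Fam83g) and Krt14. The correlations ran from 0.979 to 0.991. Within the 8 pericyte arrays alone they ran from 0.971 to 0.990, and over the 14 arrays without knockout pericyte replicates 3 and 4 from 0.950 to 0.988. The arrays share their cell type and genotype, and the values fall into a high and a low cluster, so these correlations are a description with no p.

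Krtdap, a secreted protein of differentiating keratinocytes, was the closest. It read 6.99, 6.79, 7.70 and 6.90 in wild-type pericytes and 7.26, 9.73, 9.60 and 9.44 in knockout pericytes. Krt5, a keratin of basal keratinocytes, read 7.45, 6.99, 9.12 and 8.07 in wild type and 9.15, 12.002, 12.06 and 11.25 in knockout. Wild-type replicate 3 and knockout replicate 1 were almost level for Krt5, as for the stefins. Aqp3, which encodes a water and glycerol channel of basal keratinocytes, read 6.89, 7.04, 7.55 and 7.18 in wild type and 7.22, 9.94, 9.84 and 9.50 in knockout. It was named for following stefins that were picked on this contrast, so its difference of 1.96 is given with no test.

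The lists of cell type markers were examined array by array beside the stefins. Of 17 keratinocyte markers 16 were measured. With no filter on dim probes 2 of these 16 were called in limma, beside 0.0847% of all genes: Krt5 (adjusted p = 0.0290) and Krt14 (0.0452), both higher in knockout pericytes. With the filter 11 were tested and 8 called, all higher, beside 0.317% of all genes tested. Of those 11, 9 were above the array median on 0 endothelial arrays, so they entered the test through pericyte arrays on which they were high, and nothing is read from the count of 8. In knockout pericytes Krt5 was 9.25-fold higher, Krt14, its partner in basal keratinocytes, 7.23-fold, and Perp, a desmosomal protein, 3.43-fold. Their p-values with the filter are left out for the same reason, and Perp was not called with no filter. Krt5, Krt14 and Perp were also among the genes named for following stefins picked on this contrast. The calls of Krt5 and Krt14 with no filter are therefore not independent of that choice. Krt10, a keratin of the upper epidermis, differed by 1.60-fold with an adjusted p of 0.148, and Krt17 by 3.70-fold with 0.129. The list was written with earlier results of these data known and is not independent evidence.

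This count depended on single libraries. It was 11 of 11 without knockout replicate 1, where 130 of all 10426 genes were called, and 0 of 11 without knockout replicate 2 or 3, where 4 and 3 genes were called. The median difference of the 11 was 2.30, 1.53 and 1.59 in these fits, against 1.78 with all arrays. The count was 3 of 11 without knockout replicate 4, 7 of 11 without wild-type replicate 3, 2 of 11 without wild-type replicate 4, and 1 of 11 without wild-type replicate 1 or 2. Of all 10426 genes, 17, 32, 12, 13 and 8 were called in these fits, in that order. The keratinocyte count was 0 of 11 when the fit used the pericyte arrays alone, with the same median difference, and 1 of 11 with trended robust variances. Those fits called 1 and 16 of all genes. At an unadjusted p under 0.05 the keratinocyte count was 11 of 11, beside 743 of all 10426 genes.

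The mean of the 16 measured keratinocyte markers was 6.97, 6.91, 7.59 and 7.14 on the wild-type pericyte arrays and 7.41, 9.31, 9.45 and 8.93 on the knockout pericyte arrays. Knockout replicate 1 lay below wild-type replicate 3, and the wild-type arrays ranked as they did for the stefins. On the endothelial arrays it lay between 6.81 and 6.88. The keratinocyte markers thus moved with the stefins between arrays as well as between groups, and their part in the stefin result was not tested.

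Cornified envelope genes, the differentiation programme in which stefin A takes part in skin, gave a mixed picture. Of 22 listed, 16 were measured, and with no filter 0 of 16 were called in limma. With the filter 6 were tested and 2 called, beside 0.317% of all genes tested, and 4 of the 6 were above the array median on 0 endothelial arrays. The called genes were Krtdap, 3.77-fold higher in knockout pericytes, and Sbsn, which encodes suprabasin, 1.59-fold higher, both given with no p. Sprr1b, a small proline-rich crosslinked protein, differed by 2.60-fold (adjusted p = 0.0777) and Ppl, the plakin periplakin, by 1.87-fold (0.116). These are the 4 that entered the test through pericyte arrays on which they were high, so nothing is read from the count of 2. Krtdap was also named for following stefins that were picked on this contrast. Lor, which encodes loricrin, the main protein of the mature envelope, stayed at the floor with 6.77 ± 0.05 (SD, n = 4) in wild-type and 6.78 ± 0.03 in knockout pericytes. Ivl, which encodes involucrin, read 6.85 ± 0.08 and 7.24 ± 0.47, and neither was bright enough to be tested. The called count was 0 of 6 without wild-type replicate 1, 2 or 4, without knockout replicate 2, 3 or 4, and with the pericyte arrays alone. It was 1 of 6 with trended robust variances and 5 of 6 without knockout replicate 1. Calls over all 10426 genes in these fits ran from 1 with the pericyte arrays alone to 130 without knockout replicate 1.

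Neutrophil markers were dim. Of 20 listed, 7 were measured and 2 tested, and 0 were called in pericytes, with S100a9 alone passing at an unadjusted p under 0.05. S100a9, a calcium-binding protein of granulocytes and of stressed keratinocytes, read 6.75, 7.05, 7.29 and 7.14 in wild-type and 6.75, 9.10, 8.88 and 9.65 in knockout pericytes, a difference of 1.54 with an adjusted p of 0.139 in limma. Mmp9, a gelatinase and the other tested marker, read 7.63, 7.47, 7.86 and 7.46 in wild-type and 7.95, 8.37, 7.51 and 7.47 in knockout pericytes (adjusted p = 0.8294 in limma), low on the stefin-high knockout replicates 3 and 4. Hp (haptoglobin) was highest on knockout replicate 1, at 7.56, against 6.86 to 7.18 on the other knockout arrays. S100a8, which pairs with S100a9, read 6.76 ± 0.04 and 7.36 ± 0.46, while Ltf (lactoferrin) read 6.85 ± 0.03 and 6.95 ± 0.20, and Trem1 7.08 ± 0.05 and 7.09 ± 0.06 (SD, n = 4). The mean of the 7 markers was 7.03, 6.98, 7.12 and 7.01 in wild-type and 7.12, 7.63, 7.38 and 7.69 in knockout pericytes, and 6.85 to 6.97 on the endothelial arrays. Lcn2 (lipocalin 2), too dim to be tested, read 7.06, 6.80, 7.03 and 6.83 in wild-type and 7.02, 7.38, 7.11 and 7.33 in knockout pericytes. S100a8, S100a9 and Lcn2 were higher on the arrays that were high in stefins, while Mmp9, Hp, Ltf and Trem1 did not follow that order. The part of these markers in the stefin result was not tested.

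Macrophage markers averaged below the array median on all 16 arrays. Of 13 listed, 5 were measured, and their mean was 6.80, 7.01, 7.06 and 6.90 in wild-type and 6.88, 6.82, 6.88 and 6.86 in knockout pericytes. Lyzs, which encodes lysozyme and was the only marker tested, read 7.29 ± 0.41 (SD, n = 4) in wild-type and 6.93 ± 0.08 in knockout pericytes, with a difference of -0.36 that passed at an unadjusted p under 0.05 but not after adjustment (0.676 in limma). C1qc and Cd68, defining macrophage genes, lay at 6.78 ± 0.01 and 6.89 ± 0.05 in knockout pericytes, near the floor. Mast cell markers, 8 measured of 9 listed, averaged 6.92, 7.50, 9.13 and 9.78 in wild-type and 7.02, 8.60, 9.44 and 8.57 in knockout pericytes. As for the stefins, knockout replicate 1 was the lowest of its group for these markers, and wild-type replicates 3 and 4 stood above replicates 1 and 2. Their highest array, wild-type replicate 4, was low in stefins, and 0 of 8 were called between genotypes, also at an unadjusted p under 0.05. Luminal epithelial markers, 7 measured of 8 listed, averaged 6.97, 6.82, 7.48 and 7.36 in wild-type and 7.04, 7.70, 7.79 and 8.35 in knockout pericytes, with 0 of 3 tested called. Cdh1 (E-cadherin) alone passed at an unadjusted p under 0.05. It read 7.29, 7.01, 8.99 and 8.70 in wild-type and 8.15, 10.62, 10.37 and 10.19 in knockout pericytes, a 3.57-fold difference (adjusted p = 0.214 in limma), and knockout replicates 2, 3 and 4 were its highest arrays. Of the T cell markers 3 were measured, and they averaged 8.74 to 9.20 in wild-type and 8.82 to 9.30 in knockout pericytes, with 0 of 3 called. Thy1 was flat, at 11.33 ± 0.05 (SD, n = 4) and 11.25 ± 0.06, and Cd2 read 7.21 ± 0.13 and 7.05 ± 0.14. Cd3e read 8.03, 9.69, 9.46 and 8.82 on the knockout arrays, with replicate 1 lowest as for the stefins. In wild type its replicate 3 was highest and replicate 4 next, also as for the stefins. Knockout replicate 4 lay below wild-type replicate 3 for Cd3e, unlike for the stefins.

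**Figure D3:**
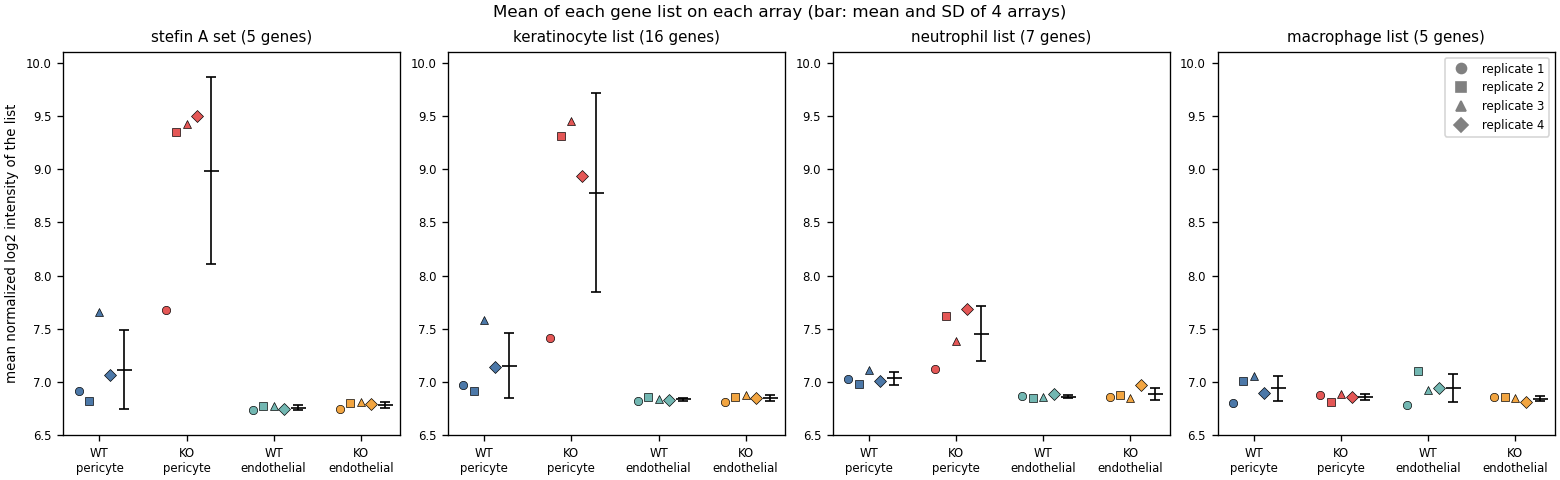
Mean normalized log2 intensity on each array of the 5 stefin A genes and of the measured keratinocyte (16), neutrophil (7) and macrophage (5) markers, by group, with the marker shape giving the replicate number and the bar the mean and SD of 4 arrays. Stefin and keratinocyte means rise on knockout pericyte replicates 2, 3 and 4, to 9.35 to 9.50 and 8.93 to 9.45, while macrophage means stay between 6.79 and 7.11 on all 16 arrays.

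Other inhibitors of the superfamily were examined in the same way. Of 27 further stefin and cystatin genes listed, 10 were measured and 5 tested, and 0 of 5 were called between knockout and wild type in either cell type in limma, also at an unadjusted p under 0.05. Cstb, the ubiquitous stefin B, read 10.23 ± 0.37 (SD, n = 4) in wild-type and 10.36 ± 0.15 in knockout pericytes, a difference of 0.14 with an adjusted p of 0.931. Cst3, which encodes the secreted inhibitor cystatin C, read 10.48 ± 0.26 and 10.41 ± 0.12, with an adjusted p of 0.967. Cst6, which encodes cystatin E/M, an inhibitor of skin, stayed near the floor at 6.78 ± 0.01 and 6.84 ± 0.10.

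Between cell types, 4 of these 5 inhibitors were higher in pericytes than in endothelial cells in wild type, and 4 of 5 in knockout, beside 36.2% and 35.9% of all genes called in either direction. In wild type Cstb was 2.93-fold higher (limma adjusted p = 8.69e-07) and Cst3 1.495-fold (0.00143). Kng2, a kininogen, was 1.66-fold higher, and Kng1, the other kininogen, whose heavy chain carries cystatin domains, 11.9-fold. Both kininogens lay below the array median on every endothelial array. They entered the test through pericyte arrays alone, so their folds are given with no p and nothing is read from these counts. The stefin A genes and stefin B thus differed in where they were detected, since Cstb also read 8.68 ± 0.20 in wild-type endothelial cells (SD, n = 4) while every stefin A probe was at the floor there.

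The cysteine cathepsins, the proteases that stefins inhibit, were listed together with legumain, a target of other cystatins. Of these 11 genes 10 were measured and 8 tested. Between genotypes 0 of 8 were called in pericytes and 0 of 8 in endothelial cells in limma. At an unadjusted p under 0.05 only Ctsz passed in pericytes and 0 in endothelial cells. Their median difference in pericytes was -0.11, against -0.01 over all genes tested. Ctsl, which encodes cathepsin L, read 8.64 ± 0.42 in wild-type and 9.01 ± 0.42 in knockout pericytes, with an adjusted p of 0.765. Ctsz, which encodes cathepsin X, read 9.47 ± 0.12 and 9.19 ± 0.23, with an adjusted p of 0.645 (SD, n = 4).

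In wild type 5 of 8 were higher in pericytes than in endothelial cells in limma, and 0 were lower, beside 1785 of 10426 genes higher and 36.2% called in either direction. Ctsk, the collagen-degrading cathepsin K known from osteoclasts, was 5.82-fold higher and Ctsh, the aminopeptidase cathepsin H, 4.61-fold. Both lay at the floor in wild-type endothelial cells, at 6.79 ± 0.04 and 6.82 ± 0.06 (SD, n = 4). Ctsf was 1.86-fold, Ctsz 1.78-fold and Ctsb, the lysosomal cathepsin B, 1.41-fold higher. Ctsk, Ctsh and Ctsf lay below the array median on every endothelial array. They entered the test through pericyte arrays alone, so their folds are given with no p and nothing is read from the counts in either genotype. In knockout 6 of 8 were higher in pericytes, beside 1809 of 10426 genes higher and 35.9% called in either direction, the sixth being Ctsl at 1.79-fold (adjusted p = 0.00276). Ctss, the cathepsin of antigen-presenting cells, and Ctsc, which activates granulocyte proteases, were too dim to be tested, at 6.84 ± 0.02 and 6.99 ± 0.15 in knockout pericytes.

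**Figure D4:**
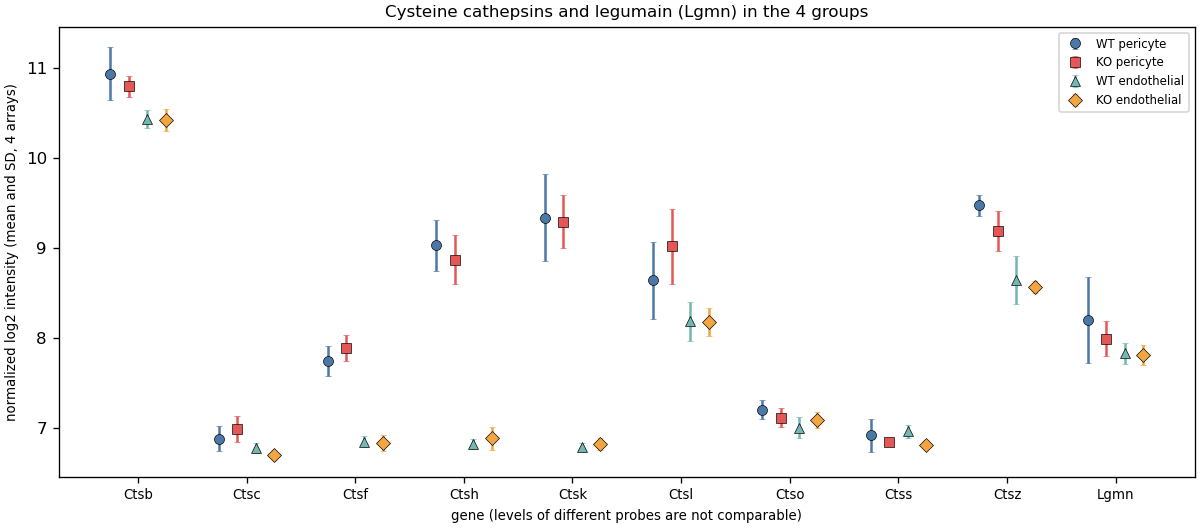
Normalized log2 intensity (mean and SD of 4 arrays) of the 9 measured cysteine cathepsins and legumain (Lgmn) in the 4 groups. Wild-type and knockout pericytes lie close together for each gene, and Ctsf, Ctsh and Ctsk are above 7.7 in pericytes and below 6.9 in endothelial cells. Levels of different probes are not comparable.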

How the data were processed

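Sorted-cell RNA was amplified (Ovation Pico WTA V2) and 1.6 µg of cRNA hybridised, per the labels' protocols. The deposited values are log2 intensities that the authors normalized using GenomeStudio and the lumi package, per the submitters' processing notes. Versions, background correction, transform and genome build are not stated there. A probe was kept when above its array's median on at least 4 of 16 arrays. This kept 14632 probes. Each of 10426 genes was represented by its brightest kept probe over all arrays. In limma 3.58.1 (R 4.3.3) all 16 arrays entered a model of 4 group means, tested two-sided, with Benjamini-Hochberg adjustment at 0.05. The fit was tested on simulated data. Without filter there were 16537 genes. Current names and promoters came from RefSeq (GRCm38.p6). Promoter windows were aligned with Biopython 1.88. The named genes were the stefin A genes, the stefin and cystatin and the protease lists, marker lists, the neighbours of the locus and the 10 genes most correlated with the stefins, of which 1 is not reported here. The genes and lists were chosen with earlier results of these data known. Same-numbered arrays correlated between -0.08 and 0.45 in their deviations between genotypes of pericytes, and between 0.03 and 0.43 between cell types of a genotype, so not every pair passed 0.1 and the numbers were not taken as pairs. Alternatives covered filters, probe choice, variance model, array weights, normalization, source table, arrays fitted and each array left out. The number of arrays limits the precision.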

Additional observations from a re-analysis of the deposited data

Results flagged for a closer look

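Within groups of 4 arrays, 8 of the 32 groups formed by the 8 stefin probes held an array far from the others, where chance gives about 1 in 20. An array was taken as far when the ratio of its gap to the range of its group passed Dixon's 95% critical value. In 4 of the 8, knockout pericyte replicate 1 was lowest. The ratio was 0.9248 for the main Stfa1 probe (8.11 against 10.43 for the nearest array), 0.8618 for the second Stfa1 probe, 0.9466 for BC100530 and 0.8982 for BC117090. These 4 probes read closely related genes in the same RNA and do not count separately. Wild-type pericyte replicate 3 was far above its group for Stfa3, with a ratio of 0.8383 (7.49 against 6.84).

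The others lay at the floor of the array and span small ranges. BC100530 was highest on wild-type endothelial replicate 2, with a ratio of 0.849 (6.88 against 6.79). The second Stfa1 probe was highest on wild-type endothelial replicate 4, with a ratio of 0.9676 (6.90 against 6.78). Stfa2 was lowest on knockout endothelial replicate 4, with a ratio of 0.9047 (6.70 against 6.79).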

How the results depend on the processing

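The pericyte differences of the 5 stefin genes kept their sign in all 66 alternatives, but their size moved. With group medians in place of means, the log2 difference of Stfa1 went from 2.58 to 3.34 and that of BC100530 from 2.03 to 2.61. In fold, group medians moved Stfa1 to 10.16 and BC100530 to 6.12. In endothelial cells 118 of 120 alternatives left the sign and the call unchanged. The exception was BC100530, at 0.0016 with array weights and between -0.0238 and 0.0115 with each array left out, above 0 without wild-type endothelial replicate 2. The count of 33 genes called in pericytes was 14 with no filter, 3 with the stricter filter of 8 arrays, 16 with trended robust variances, 96 with array weights and 1 with the pericyte arrays alone. It ran from 3 without knockout replicate 3 to 130 without knockout replicate 1. The count of 1 in endothelial cells was 2 with every kept probe, 2 with array weights and 1 to 2 with an array left out. The cause was not tested, except that fewer arrays or more genes entered some fits. A replicate block gave 40 genes in pericytes and 1 in endothelial cells, with differences of the stefin genes that are the same by construction. The list counts with arrays left out were added after seeing the data. Limits are the floor of the scale, 4 arrays a group, unknown pooling, and probes that may read several copies.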
